A study of Mus musculus with 4 samples.

Results

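In J1 mouse embryonic stem cells profiled by eCLIP, the Zbtb7a locus held a long series of eIF4A2 peaks on one strand. With gaps of up to 1000 bases joined, 36 of them formed a chain that tied for second in the list by number of peaks. At a joining distance of 500 bases the largest chain of the locus ranked 31. The peaks were those of the deposited list with a midpoint on the plus strand of chromosome 10 between 80597000 and 80617000 (mm9), a window of 20 kb given for the gene. The window held 38 of the 47777 peaks in the list, or 0.0795%. The locus was selected on the number of peaks that fell in it. Every peak in the list also had a log2 ratio of IP to input above 1. The number of peaks and their folds are therefore given as a description, without a test.

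Zbtb7a encodes a transcription factor of the POK family (also called LRF or Pokemon), which binds DNA through zinc fingers at its C-terminal end and recruits corepressors through a BTB/POZ domain at its N-terminal end. It is known for its part in the choice between B and T cell fate, in erythroid maturation and in the silencing of fetal globin genes. eIF4A2, a close relative of the translation initiation factor eIF4A1, belongs to the DEAD-box proteins, which unwind or remodel RNA. In eCLIP, ultraviolet light crosslinks proteins to the RNA they touch, an antibody recovers one protein with its RNA, and a sample of the same lysate without recovery (input) measures the background.

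The series held 2 IP libraries, made with an antibody against eIF4A2, and 2 input libraries, described as biological replicates. All 4 came from the J1 line (strain 129S4/SvJae), grown without feeder cells in serum and leukemia inhibitory factor and crosslinked before harvest. The authors deposited 1 list for the 4 libraries, which gives every peak a log2 ratio of IP to input, called its log2 fold here. Values per library and read counts are not given in the list, so the spread between replicates, the depth and the error of each fold are unknown. The list also carries no gene names, and with no mm9 annotation at hand the assignment to Zbtb7a rests on the window alone.

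The Zbtb7a peaks formed a series along the plus strand that was set off from other peaks on both sides. The first peak started at 80600679 and the last ended at 80612873, a span of 12.2 kb. The first peak lay 3.68 kb inside the 5′ edge of the window and the last lay 4.13 kb inside the 3′ edge. Outside the window, the nearest plus-strand peak on the 5′ side ended 18.2 kb before the first Zbtb7a peak and had a log2 fold of 1.63. The nearest on the 3′ side started 29 kb after the last and had a log2 fold of 1.65. Every plus-strand peak within these distances therefore belonged to the series of 38, and widening the window by 5000 bases on each side added none.

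The minus strand of the same window held 2 peaks, both beyond the 3′ end of the series. One covered 80616282 to 80616319 at a log2 fold of 1.09, and the other lay at 80616501 to 80616514 and had a log2 fold of 1.24. They began 3.41 and 3.63 kb after the last plus-strand peak. None lay opposite the plus-strand series. In gene order, taken from the GRCm38 annotation without its coordinates, the protein-coding gene before Zbtb7a is Map2k2, a kinase gene of the ERK pathway on the plus strand. The one after it is Pias4, a SUMO ligase gene on the minus strand. The minus-strand peaks were not assigned to a gene.

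**Figure D1:**
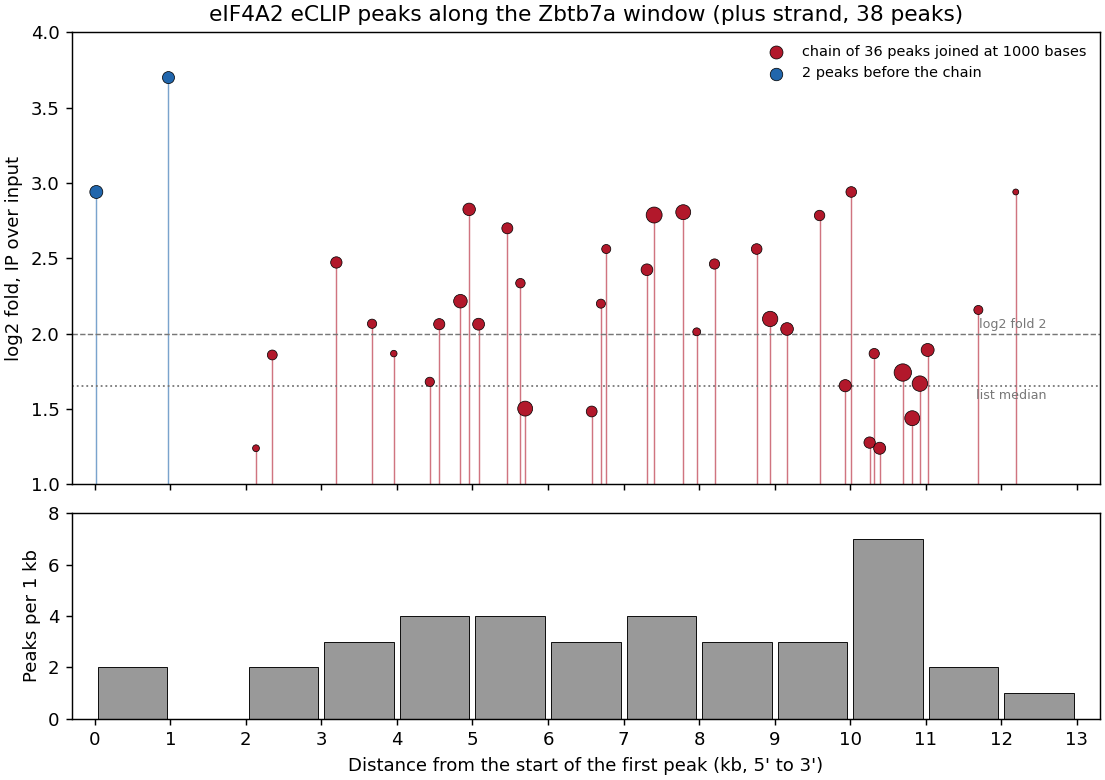
Upper panel: log2 fold of IP over input (vertical axis, which starts at 1) of each of the 38 Zbtb7a peaks against its distance in kb from the start of the first peak, with the point's area in proportion to peak width; the dashed line marks a log2 fold of 2 and the dotted line the median of all 47777 peaks. Lower panel: number of peaks per 1 kb, where the last bar stands for less than 1 kb because the series ends at 12.2 kb. The peak with the highest fold lies near the 5′ end, 7 peaks fall between 10 and 11 kb, and none falls between 1 and 2 kb.

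Enrichment of the Zbtb7a peaks was moderate and above the middle of the list. The lowest log2 fold was 1.24, the median 2.08 and the highest 3.70, which correspond to 2.36-fold, 4.23-fold and 13-fold. The interquartile range was 1.77 to 2.56. Over all peaks of the list the median log2 fold was 1.65, with an interquartile range of 1.29 to 2.07. Of the 38 Zbtb7a peaks, 24 had a log2 fold of 2 or more (4-fold), or 63.2% (Wilson 95% interval 47.3 to 76.6%, which covers counting error over peaks only), against 28.3% of all peaks. A log2 fold of 3 or more (8-fold) was given for 1 Zbtb7a peak, or 2.63%, against 4.03% of all peaks. The locus thus had many peaks past 4-fold and a single one past 8-fold. These peaks share 1 locus and the same libraries and are not replicates of one another.

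By its fold, the most enriched peak stood apart from the rest, though the error of that fold and the reads behind it are unknown. This peak covered 80601637 to 80601673, was 37 bases wide and had a log2 fold of 3.70, which placed it 304th among all 47777 peaks. The next value, a log2 fold of 2.94 (7.68-fold), was shared by 3 peaks. One of them was the first of the series, at 80600679 to 80600721. Another lay at 80610678 to 80610706, and the other was the last of the series, at 80612865 to 80612873. The fifth highest had a log2 fold of 2.82 at 80605615 to 80605654. The 5 highest peaks were therefore spread over the whole span, with the outermost peak at either end among them.

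The lowest folds were found towards both ends of the series as well. A log2 fold of 1.24 was given for the peak at 80602808 to 80602819 and for the peak at 80611050 to 80611086. The peak at 80610919 to 80610951 had a log2 fold of 1.28. The last of these lay 212 bases after one of the peaks at 2.94, so high and low folds were close neighbours.

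The relation of fold to position along the locus was weakly negative and its size depended on which peaks were kept. Spearman's rho of log2 fold with position was -0.17 (Pearson r = -0.23) over the 38 peaks. It was -0.37 over the 34 peaks of at least 20 bases, -0.02 after merging peaks within 50 bases, -0.11 without the highest peak and -0.04 within the 36 peaks that follow the first pair. These values describe positions within the same libraries and carry no p. When the span was divided into 3 segments of equal length, the first (5′) segment held 7 peaks (median log2 fold 2.07), the middle segment 15 (median 2.22) and the last (3′) segment 16 (median 1.96). In these segments, 4 of 7, 12 of 15 and 8 of 16 peaks were at 4-fold or more. The ranges overlapped in all of them, at 1.24 to 3.70, 1.48 to 2.82 and 1.24 to 2.94.

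Below that scale, peaks on the same side of 4-fold came in runs, which were picked out after their values were seen. The longest run of consecutive peaks at 4-fold or more held 11 peaks over 2919 bases, at 80607368 to 80610286, with log2 folds of 2.01 to 2.81. The next held 6 peaks over 1102 bases, at 80605223 to 80606324, with log2 folds of 2.06 to 2.82. The longest run under 2 held 7 peaks over 806 bases, at 80610919 to 80611724, with log2 folds of 1.24 to 1.89. Apart from these runs, no more than 2 consecutive peaks lay on the same side. Between neighbours in the series, the log2 fold differed by a median of 0.46 (37 pairs). Over the 16182 neighbouring pairs of the list up to 1000 bases apart the median was 0.39. The sets were not alike, as 1 of the 37 pairs was 1134 bases apart and had the largest difference of the series (2.46). Spearman's rho between neighbours was 0.17 over the 37 Zbtb7a pairs and 0.32 over the 16182 pairs of the list.

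The 38 peaks were short, and most of the sequence between the first and the last was outside any peak. They covered 1333 bases, or 10.9% of the span. Widths ran from 9 to 77 bases with a median of 32.5 (interquartile range 23.5 to 42.5), against a median of 32 (19 to 47) over the whole list. The widest peaks covered 80611336 to 80611412 (77 bases, log2 fold 1.74), 80608051 to 80608115 (65 bases, log2 fold 2.79) and 80611570 to 80611630 (61 bases, log2 fold 1.67). The narrowest, of 9 bases, was the last peak of the series, one of those with a log2 fold of 2.94. Width was therefore no guide to fold in this locus. Spearman's rho of width with log2 fold was -0.04 over the 38 peaks.

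Spacing was uneven. The 37 gaps between neighbouring peaks ran from 23 to 1134 bases, with a median of 212 (interquartile range 72 to 445). Of these gaps, 18 were of 200 bases or less and 7 were over 500 bases. No pair of Zbtb7a peaks touched end to end. The longest gap, of 1134 bases, separated the most enriched peak from the peak at 80602808. The gap of 915 bases between the first and the second peak followed in length. The next, of 837 bases, lay between the peaks ending at 80606404 and starting at 80607242, which had log2 folds of 1.50 and 1.48.

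The closest packing was in the 3′ part. The kilobase from 10 to 11 kb after the start of the first peak held 7 peaks that covered 321 bases. The kilobase from 1 to 2 kb held none, and the other full kilobases held 2 to 4. The last bin, cut short by the end of the series, held 1. The share of bases under a peak was 4.5% in the first segment, 13.1% in the middle segment and 15.2% in the last. Of the sets of peaks separated by 50 bases or less, the largest held 3 peaks at 80610919 to 80611086, with log2 folds of 1.24 to 1.87. A pair at 80611471 to 80611630 had log2 folds of 1.44 and 1.67. Another pair at 80607971 to 80608115 had log2 folds of 2.42 and 2.79. The tightest spacing near the 3′ end thus fell within the run of low folds, and the 7 peaks of that run included 2 of the 3 widest.

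The series spanned less of the genome than the gene did, and more than the length of its longest spliced mRNA. A genomic span includes introns, so the comparison with the spliced length does not place peaks in introns. In GENCODE M21, made for GRCm38, Zbtb7a has 6 annotated transcripts, whose exons together cover 6.81 kb of a gene of 17.8 kb. The transcript with the longest spliced form has 3 exons, a spliced length of 5.94 kb and a coding length of 1707 bases without the stop codon, and its last exon of 4253 bases includes its whole 3′ UTR. Its introns measure 7262 and 2752 bases. The parts of the gene in no exon of any transcript include uninterrupted stretches of 5891 and 2752 bases. By comparison, the peaks spanned 12.2 kb and the longest stretch without a peak between the first and the last was 1134 bases. Only lengths were compared, because the annotation and the list are on different builds. Individual peaks were not placed on exons, introns or UTRs.

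Joined at gaps of up to 1000 bases on one strand, the Zbtb7a peaks formed 2 chains. The first held the 5′ pair, with log2 folds of 2.94 and 3.70. The second held the other 36 peaks at 80602808 to 80612873, over 10.1 kb, with a median log2 fold of 2.06. By number of peaks this chain was second of the 31595 chains in the list, together with 1 chain of the same number on chromosome 17. At a joining distance of 1200 bases, chosen after the gaps were seen, all 38 peaks formed 1 chain, and its rank was again 2. At 500 bases the window held 8 chains, the largest with 13 peaks (rank 31 of 34484 chains, tied with 10 others). At 200 bases it held 20 chains, the largest with 4 peaks (rank 468 of 38081, tied with 418 others). At 10000 bases all 38 peaks were joined, and they ranked 33 of 17797, tied with 3 others. The rank of 2 thus belonged to joining distances of 1000 and 1200 bases.

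Among the 172 chains of at least 10 peaks, the Zbtb7a chain was long and loosely packed. Its length of 10.1 kb was exceeded by 1 chain, and the median length was 2.41 kb. It held 3.58 peaks per kb, and 135 of the 172 chains were denser (median 5.3 per kb). The longest other chains held 4.24 (chromosome 11, 11.1 kb), 3.67 and 3.47 (chromosome 8, 9.25 and 8.65 kb) and 3.88 (chromosome 4, 8.26 kb). Low density was therefore shared by the longest chains. Peaks of the Zbtb7a chain covered 12.4% of its length, and 144 chains had a higher coverage (median 22.2%). Its median gap of 197 bases was exceeded in 34 chains (median 99 bases). At least 1 touching pair of peaks occurred in 115 chains, and the Zbtb7a chain, like 56 others, had none. Its median log2 fold of 2.06 was exceeded in 51 chains, and the median over chains was 1.85. Folds within it were spread over an interquartile range of 0.77, wider than in 139 of the chains.

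**Figure D2:**
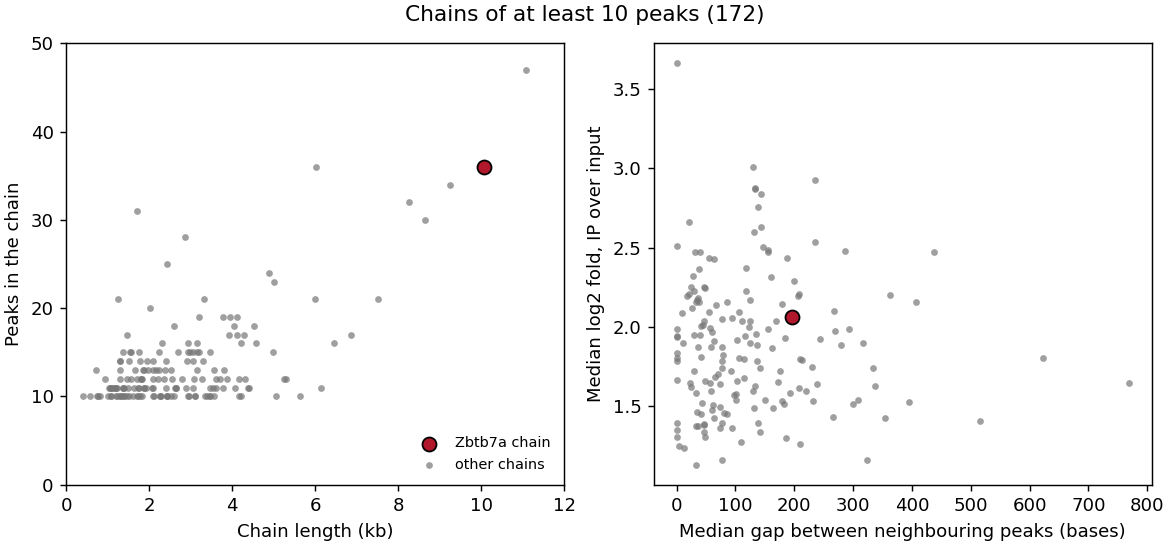
The 172 chains of at least 10 peaks, with the Zbtb7a chain in red and the others in grey. Left: peaks in the chain against chain length in kb. Right: median log2 fold of IP over input against the median gap between neighbouring peaks in bases. The Zbtb7a chain, with 36 peaks over 10.1 kb, lies at the long end on the left, and on the right it lies at a median gap of 197 bases and a median log2 fold of 2.06, within the range of the other chains.

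Set beside the other 4 of the 5 chains with the most peaks, all on the plus strand, the Zbtb7a chain had the second highest median fold. The Zbtb7a chain had a median log2 fold of 2.06 and 22 of 36 peaks at 4-fold or more. The chain on chromosome 8 at 123077232 to 123086483 had a median of 2.32 and 25 of 34 such peaks. The chain on chromosome 11 at 117867071 to 117878144 had a median of 1.74 and 12 of 47. On chromosome 4, the chain at 140258062 to 140266319 had a median of 1.52 and 7 of 32. The chain on chromosome 17 at 23952395 to 23958425 had a median of 1.45 and 0 of 36. In spacing, the Zbtb7a chain (median gap 197 bases) was nearest to those on chromosomes 4 and 8 (183 and 160 bases) and looser than those on chromosomes 11 and 17 (141.5 and 85 bases). The smallest gap was 23 bases in the Zbtb7a chain and 1 base in the chromosome 8 chain, and neither had a touching pair. Among the 172 chains of at least 10 peaks, 38 had a larger smallest gap than the Zbtb7a chain. With no error for any fold, these differences between chains were not tested.

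**Figure D3:**
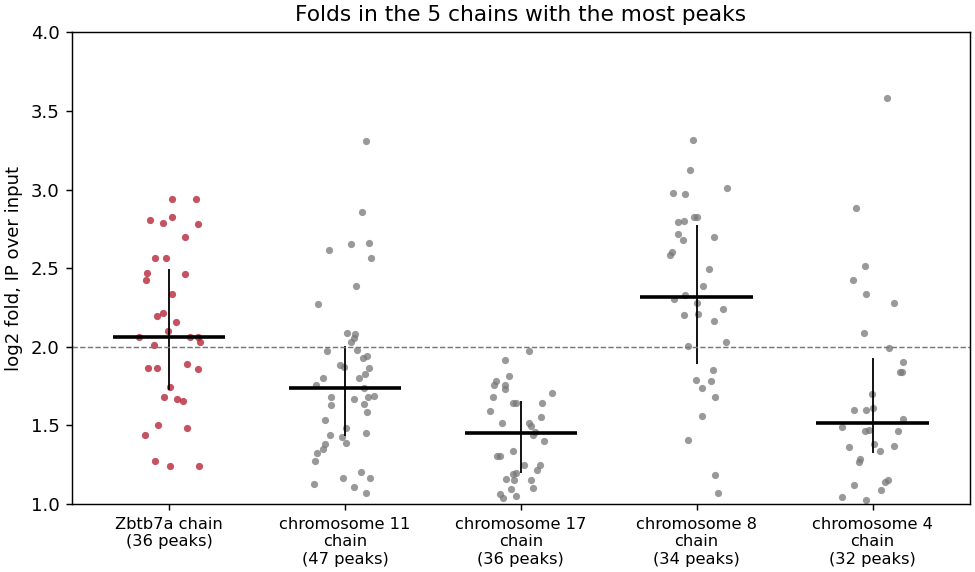
Log2 fold of IP over input (vertical axis, which starts at 1) of every peak in the 5 chains with the most peaks. Points are peaks, horizontal bars are medians and vertical lines are interquartile ranges, which show the spread over peaks and not over replicates; the dashed line marks a log2 fold of 2. The Zbtb7a chain, at a median of 2.06, lies above the chains on chromosomes 11, 17 and 4 and below the chain on chromosome 8; its interquartile range of 1.73 to 2.49 overlaps those of the chains on chromosomes 11, 8 and 4 and not that of the chain on chromosome 17, whose upper quartile is 1.65.

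The place of a peak in the deposited list was not used to choose the window, but it was related to fold and width and is not independent of them. Peaks in the list carry serial numbers that run without a break within each of the 44 combinations of chromosome and strand, and what sets their order is not given in the sources used here. On the plus strand of chromosome 10, which held 1094 peaks, early peaks tended to be wider and more enriched. The first 25% of places had a median width of 50 bases and a median log2 fold of 1.94, and the last 25% had medians of 21 bases and 1.46. Peaks of Zbtb7a stood early, between places 19 and 461 with a median of 139.5. The first 25% of places held 31 of the 38, and all 38 were within the first 50%.

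Within Zbtb7a the order followed fold more closely than width. Spearman's rho of place with log2 fold was -0.75 and with width -0.51 over the 38 peaks. Over the 1094 peaks of the strand these values were -0.37 and -0.48. The earliest places, 19 and 20, belonged to the adjacent peaks at 80608440 to 80608496 and 80608051 to 80608115, with log2 folds of 2.81 and 2.79 and widths of 57 and 65 bases. The most enriched peak, with a log2 fold of 3.70, was at place 28. The peaks that shared a log2 fold of 2.94 stood at places 56, 106 and 180, in the order of their widths of 43, 29 and 9 bases. Fold alone therefore did not set the order.

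**Figure D4:**
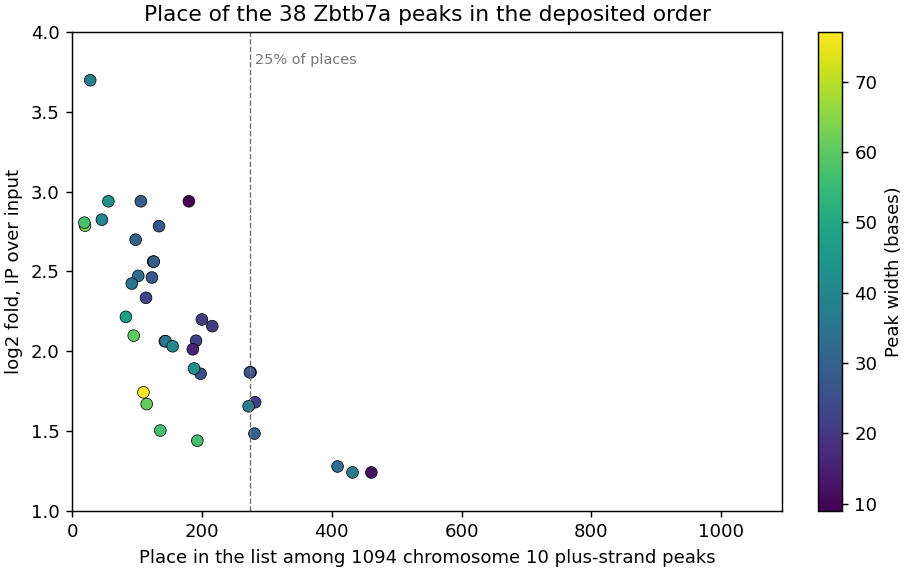
Log2 fold of IP over input (vertical axis, which starts at 1) of the 38 Zbtb7a peaks against their place among the 1094 plus-strand peaks of chromosome 10 in the deposited order, coloured by peak width in bases. The dashed line marks the end of the first 25% of places, which hold 31 of the 38 peaks; the last Zbtb7a peak is at place 461.

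The fold values of Zbtb7a repeated. The 38 peaks had 32 distinct values, because 5 values occurred more than once. After subtraction of one constant for the whole list, 0.24 on the log2 scale, each of the 38 values was the log2 of a ratio of whole numbers with a denominator of at most 27 (relative tolerance 1e-06). The most enriched peak corresponded to a ratio of 11 to 1. The peaks with a log2 fold of 2.94 corresponded to 13 to 2, and those with 1.24 to 2 to 1. The earliest peaks in the list corresponded to 77 to 13 and 76 to 13. Ratios of a whole number to 1 made up 6 of the 38 Zbtb7a values, or 15.8%, against 27.8% of the list. Denominators of up to 10 made up 21 of 38, or 55.3%, against 75.6% of the list. Such a ratio is reduced to its lowest terms, so the reads under each peak remain unknown.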

How the data were processed

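The deposited file lists, for each peak, its position, strand and name and a log2 fold. The authors computed these log2 values from IP and input, and all lie above 1. The genome build was mm9, and the tools named in the submitters' processing notes are STAR 2.6.1b and cutadapt 1.18. How peaks were called and filtered and how replicates were combined is not given in the sources used here. Starts were changed to count from 1. A chain is a set of peaks on one strand, with gaps of at most 1000 bases between them. The constant behind the whole-number ratios was the one that gave the simplest ratios over all peaks, with the most frequent value set in turn at 1 to 8. The gene, the window and the features compared were chosen with earlier results of these data known. The peaks named were those with the 5 highest and 3 lowest folds, the 3 widest, the narrowest, the first, the last, the 3 largest sets within 50 bases and those beside the 3 longest gaps. The runs and the earliest peaks in the list were chosen after their values were seen. No statistical test was run, because no replicate values were at hand and peaks of one transcript are not replicates. Peak sequences, which need an mm9 genome, were not analysed here. Transcript lengths are from GENCODE M21 (GRCm38). Procedures were tested on simulated data. Python 3.11.15, numpy 2.4.6, scipy 1.17.1, pandas 2.3.3 and matplotlib 3.10.9 were used.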

Additional observations from a re-analysis of the deposited data

How the results depend on the processing

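Of 27 alternative values, 16 stayed within the set range (1.5 times for counts and ranks, a 95% interval over peaks for other values) and 11 did not. Such an interval treats the peaks as independent, and for the rho of fold with position it was wide, at -0.47 to 0.15. A value within it can therefore still differ much from the main one. The number of Zbtb7a peaks was 24 with a limit of 2 on the log2 fold and 1 with a limit of 3, against 38. A minimum width of 20 bases left 34 peaks, with a rho of fold with position of -0.37 against -0.17, and merging peaks within 50 bases left 31. The window held 2 chains at a joining distance of 1000 bases, 20 at 200 bases and 8 at 500 bases. It held 1 at 10000 bases and at 1200 bases. The largest chain ranked 468 at 200 bases and 31 at 500 bases, against 2. Its rank of 33 at 10000 bases was also outside the set range and is not counted among the 27. Shorter joining distances split the series at its longer gaps. By median log2 fold, the chain ranked 52 among 172 chains of at least 10 peaks and 6 among the 16 of at least 20. The share of values with a small denominator was 97.4% with denominators up to 20 and 34.2% up to 5, against 55.3% up to 10, as a wider limit admits more ratios. The distance of 1200 bases and the correlation without the highest peak were chosen after seeing the data. No paired analysis was possible because each peak has a single value for all libraries; leaving out a replicate and measuring what depth limits were not possible either.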
